A study of Mus musculus with 6 samples.

Results

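A set of 10 genes of the nitric oxide (NO) and cyclic GMP (cGMP) pathway were examined in mouse heart, which the study's methods give as left ventricular myocardium and the sample labels only as heart. They were 10 of the 54532 gene identifiers in the expression table, taken by matching Ensembl identifiers to symbols in GENCODE release M21 on GRCm38, by a rule that uses symbols and no expression value. The genes were Nos1, Nos2 and Nos3, which encode NO synthases, Ddah1 and Ddah2, Gucy1a1 and Gucy1b1, which encode the subunits of soluble guanylyl cyclase, Prkg1, which encodes a cGMP-dependent kinase, and the cGMP phosphodiesterase genes Pde5a and Pde9a. The HFpEF group (heart failure with preserved ejection fraction) held 3 male C57BL/6 mice given, for 12 weeks, a high-fat diet with 60% of kcal from fat together with L-NAME at 0.5 g/L in drinking water of pH 7.4. The Chow group held 3 male C57BL/6 mice on standard chow and regular water for the same time. The study's methods give the mice as 6 to 8 weeks old at the start and the RNA as coming from a different mouse for each of the 6 libraries. Diet and L-NAME were always given together, so their separate parts in any difference cannot be told apart.

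Nitric oxide is made from arginine by NO synthases and binds the heme of soluble guanylyl cyclase, which then makes cGMP. In vessels and heart muscle cGMP activates the kinase encoded by Prkg1, which relaxes smooth muscle, and phosphodiesterases such as PDE5A and PDE9A end the signal. Asymmetric dimethylarginine (ADMA) is a natural inhibitor of NO synthase that DDAH1 breaks down. L-NAME, an arginine analogue, also inhibits these synthases, so the comparison asks what the transcripts around the inhibited enzyme looked like after 12 weeks.

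Expression was deposited as FPKM (fragments per kilobase of transcript, normalised for library size), a unit in which levels of different genes can be set side by side. The reads recovered from these values numbered 13076772 to 15574914 in the Chow libraries, with a median of 13257173, and 13461735 to 16027084 in the HFpEF libraries, with a median of 15196287. HFpEF replicate 3 stood apart from the other libraries, at 75.5 on the first principal component (42.3% of the variance) against 11.5 and 12.7 for the other HFpEF libraries and −35.8 to −31.7 for Chow. Mitochondrially encoded genes took 7.17% of its reads, compared with 20.1% to 26.0% in the other 5 libraries. Atrial cardiomyocyte markers (Nppa, Myl7, Myl4 and Sln), which should be low in left ventricle, summed to 2305 and 3834 FPKM in HFpEF replicates 1 and 2 and 538 in Chow replicate 3, against 13.3 to 20.6 in the other 3 libraries. Ventricular cardiomyocyte markers were abundant in every library, from 8319 to 18685 summed FPKM. Several results that rest on one of these libraries are given with and without it.

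Of the 10 genes, 9 reached the expression minimum (FPKM 0.5 or more in 3 or more of the libraries) and were tested, with limma on log2(FPKM + 0.1) and Benjamini-Hochberg adjustment over the 14225 genes tested. Of these 9 genes, 0 reached an adjusted p under 0.05, where 0.0984% of all tested genes did, and 0 were differentially expressed genes (DEGs, which also need a log2 fold change of 2 or more in either direction), where 0.0562% were. At an unadjusted p under 0.05, 1 gene was higher in HFpEF hearts (Gucy1a1, with 10.2% of all tested genes) and 1 was lower (Nos2, with 13.1%). Every HFpEF library lay above every Chow library for 2 genes, Gucy1a1 and Ddah2, as it did for 15.6% of all tested genes. For 1 gene, Nos2, every HFpEF library lay below every Chow library, as for 19.7% of all tested genes. The fitted log2 fold changes of the 9 genes ran from −0.83 to 1.19 with a median of 0.39, while the median of all genes tested was −0.01. Of the 9 genes, 7 were above 0, as were 6939 of the 14225 genes tested. Among those 7, Ddah1 and Pde9a changed sign with a library left out.

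**Figure D1:**
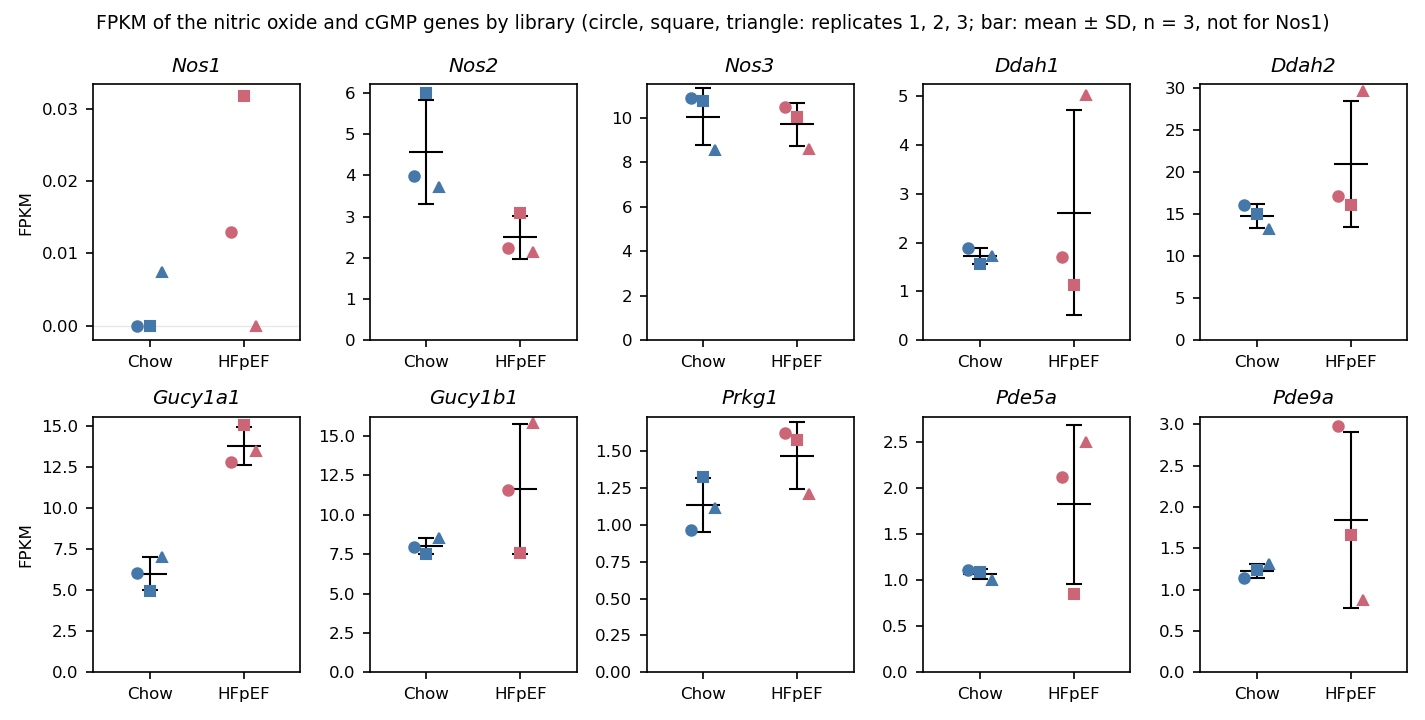
FPKM of each of the 10 genes (y axes, linear, a separate scale for each gene) in the 3 Chow and 3 HFpEF libraries, with circles, squares and triangles for replicates 1, 2 and 3 and bars for the mean ± SD of 3 mice (no bar for Nos1, which had 0 to 6 reads per library). The 3 HFpEF points of Gucy1a1 lie between 12.8 and 15.0, all above the Chow points, those of Nos2 lie below the Chow points, and those of Nos3 overlap with Chow.

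Levels differed widely within the pathway. In Chow hearts the order by mean FPKM was Ddah2, Nos3, Gucy1b1, Gucy1a1, Nos2, Ddah1, Pde9a, Prkg1, Pde5a and Nos1, and the ranges of neighbours overlapped only for Gucy1a1 and Nos2, Pde9a and Prkg1, and Prkg1 and Pde5a. In HFpEF hearts the order was Ddah2, Gucy1a1, Gucy1b1, Nos3, Ddah1, Nos2, Pde9a, Pde5a, Prkg1 and Nos1. There the neighbours from Gucy1a1 to Nos3 overlapped in turn, as did those from Ddah1 to Prkg1. The spread between mice also differed. The coefficient of variation of FPKM for the 9 tested genes was 5.39% to 27.5% in Chow and 8.48% to 80.3% in HFpEF, and it was larger in HFpEF for 5 of the 9 (Ddah1, Ddah2, Gucy1b1, Pde5a and Pde9a).

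Among the NO synthases, Nos3 was the most abundant in every library, and the difference in its level between the groups was within the spread between mice. Nos3 encodes the endothelial synthase, whose NO relaxes vessels. The gene (ENSMUSG00000028978, chromosome 5, 24364810 to 24384474, plus strand) had 10.9, 10.7 and 8.55 FPKM in the Chow libraries and 10.5, 10.03 and 8.61 FPKM in the HFpEF libraries. The groups overlapped almost completely, and replicate 3 was the lowest of each. The means were 10.04 ± 1.30 (SD, n = 3) for Chow mice and 9.70 ± 0.966 (SD, n = 3) in HFpEF. The fitted log2 fold change was −0.05 ± 0.14 (SE), with an adjusted p of 0.849 (limma). Its 95% confidence interval, from −0.38 to 0.28, corresponds to 0.771 to 1.21 times the Chow level. The sign turned to above 0 without Chow replicate 1 (0.011), Chow replicate 2 (0.0032) or HFpEF replicate 3 (0.034). Exons of Nos3 share 294 bases with Atg9b and 1040 bases with Gm15587, both on the opposite strand. The counting strand is not given in the sources used here, and those neighbours had only 4 to 25 reads per library against 427 to 702 for Nos3.

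Nos2 encodes the inducible synthase, known from activated macrophages. It was lower in each HFpEF library than in any Chow library. Nos2 (ENSMUSG00000020826, chromosome 11, 78920787 to 78960254) had 3.98, 6.01 and 3.71 FPKM in Chow and 2.24, 3.09 and 2.15 FPKM in HFpEF. All 3 HFpEF values lay below the lowest Chow value, with Chow replicate 2 the highest library. The means of 4.57 ± 1.26 (SD, n = 3) and 2.49 ± 0.519 (SD, n = 3) gave a fitted log2 fold change of −0.83 (standard error 0.23, unadjusted p = 0.00968), which was 0.561 times Chow with a 95% confidence interval of 0.382 to 0.824. The adjusted p was 0.127 (limma), between 0.113 and 0.358 over the alternatives, so the difference did not pass the adjusted threshold. Reads per library were 198 to 311 in Chow and 137 to 231 in HFpEF. The 8 macrophage markers summed to 219 to 280 FPKM in Chow and 272, 367 and 921 FPKM in HFpEF replicates 1, 2 and 3, so replicate 1 lay within the Chow range. Of the 8, 2 were higher at an unadjusted p under 0.05, beside 10.2% of all tested genes. For 3, every HFpEF library lay above every Chow library, beside 15.6% of all tested genes. All 8 had a fitted log2 fold change above 0, as did 6939 of the 14225 genes tested. Endothelial and ventricular cardiomyocyte markers had lower summed FPKM in each HFpEF library than in any Chow library, as given below. The part of any of these markers in the Nos2 result was not tested.

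Nos1, the neuronal synthase, was close to undetected. This gene (ENSMUSG00000029361, chromosome 5, 117781032 to 117958840) had 0, 0 and 1 reads in Chow and 2, 6 and 0 reads in HFpEF, or at most 0.0318 FPKM. Only HFpEF replicate 2 exceeded the 3 reads that a count of 0 still allows, so a difference was not detectable at this depth and no fold is given. This limit covers counting error only.

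The make-up of NO synthase transcripts within a library did not overlap between the groups. Nos3 accounted for 73.2%, 64.1% and 69.7% of the summed Nos1, Nos2 and Nos3 FPKM in Chow and for 82.3%, 76.3% and 80.0% in HFpEF. The HFpEF shares were all above the Chow shares, with means of 69.0% ± 4.58 (SD, n = 3) for Chow mice and 79.5% ± 3.03 (SD, n = 3) in HFpEF, a difference of 10.5 percentage points. The exact two-sided permutation test gave p = 0.1, the smallest value that 3 mice against 3 can give. With Nos1 close to undetected, this share is set by the ratio of Nos2 to Nos3, so it is not a result separate from that of Nos2. The Nos2 level was 0.366, 0.560 and 0.434 times that of Nos3 in Chow and 0.215, 0.308 and 0.249 times in HFpEF. Summed NO synthase FPKM was 14.6 ± 2.24 (SD, n = 3) for Chow mice and 12.2 ± 1.27 (SD, n = 3) in HFpEF, with overlapping ranges.

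Endothelial markers had lower summed FPKM in HFpEF, at 261, 243 and 263 for the 3 replicates against 313, 330 and 290 in Chow, and 5 of the 12 markers did not overlap between groups (Cdh5, Kdr, Tie1, Esam and Flt1, all lower, as were 19.7% of all tested genes). Pecam1 overlapped, at 32.4 to 36.4 FPKM in Chow and 32.1 to 33.7 FPKM in HFpEF. None of the 12 markers was at 0. In bulk tissue, fewer cells of a type and less RNA per cell cannot be told apart. Relative to the mean of the 12 markers on the log2(FPKM + 0.1) scale, Nos3 was at −1.02, −1.06 and −1.19 in Chow and −0.83, −0.78 and −1.09 in HFpEF. The difference of 0.19 had an exact permutation p = 0.3, and HFpEF replicate 3 fell within the Chow range. The ratio of Nos3 to endothelial markers did not separate the groups beyond the spread between mice.

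The ADMA-hydrolysing enzymes were dominated at the transcript level by Ddah2, the paralogue of Ddah1, whose own hydrolase activity has been debated. Ddah2 (ENSMUSG00000007039, chromosome 17, 35059035 to 35062095) had 16.1, 15.1 and 13.3 FPKM in Chow and 17.2, 16.1 and 29.6 FPKM in HFpEF. The groups did not overlap, but HFpEF replicate 2 lay above Chow replicate 1 by less than the rounding of these values, and HFpEF replicate 3 stood far above the rest. The fitted log2 fold change was 0.45 ± 0.24 (SE), with an adjusted p of 0.302 (limma), and was 0.17 without HFpEF replicate 3. Ddah1 (ENSMUSG00000028194, chromosome 3, 145758675 to 145894277), the established ADMA hydrolase, had 1.89, 1.56 and 1.72 FPKM in Chow and 1.70, 1.13 and 5.02 FPKM in HFpEF. HFpEF replicate 3 was again the highest library and replicate 2 the lowest, a 4.45-fold range among the HFpEF mice against 1.21-fold in Chow. The Ddah1 log2 fold change was 0.30 ± 0.50 (SE), with an adjusted p of 0.732 (limma), and its direction turned to −0.29 without HFpEF replicate 3.

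Between the DDAH genes, Ddah2 exceeded Ddah1 by 8.53, 9.66 and 7.71 times in Chow and by 10.1, 14.3 and 5.91 times in HFpEF. The log2 ratio of Ddah1 to Ddah2 was −3.10 ± 0.16 (SD, n = 3) for Chow mice and −3.25 ± 0.64 (SD, n = 3) in HFpEF. These overlapped, with an exact permutation p = 0.7 for the difference of −0.14. Without HFpEF replicate 2 the difference turned to 0.15.

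Soluble guanylyl cyclase, the receptor for NO, held the largest fitted log2 fold change of the 9 tested genes, in its alpha-1 subunit. Gucy1a1 (ENSMUSG00000033910, chromosome 3, 82092427 to 82145789, minus strand) had 6.05, 4.98 and 7.001 FPKM in Chow and 12.8, 15.0 and 13.5 FPKM in HFpEF. The groups were well apart, and the 3 HFpEF mice differed by only 1.18-fold. The means were 6.01 ± 1.01 (SD, n = 3) for Chow mice and 13.8 ± 1.17 (SD, n = 3) in HFpEF. The fitted log2 fold change was 1.19 (standard error 0.15, unadjusted p = 0.000121), a 2.28-fold higher level with a 95% confidence interval of 1.79 to 2.91. The adjusted p from limma was 0.0597, just above the 0.05 threshold, so the difference did not pass. Without HFpEF replicate 3 the log2 fold change was 1.20 with an adjusted p of 0.0168 (limma), and 8.36% of all tested genes then had an adjusted p under 0.05. Over the alternatives the log2 fold change ran from 1.06 to 1.30 and the adjusted p from 0.0168 to 0.246. Reads per library were 407 to 600 in Chow and 1231 to 1812 in HFpEF.

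The beta-1 subunit, which carries the heme that NO binds, was less uniform. Gucy1b1 (ENSMUSG00000028005, chromosome 3, 82032006 to 82074689, minus strand) had 7.98, 7.51 and 8.53 FPKM in Chow and 11.6, 7.57 and 15.8 FPKM in HFpEF. HFpEF replicates 1 and 3 lay above all Chow libraries, while replicate 2 lay within the Chow range. The fitted log2 fold change was 0.47 ± 0.25 (SE), with an adjusted p of 0.302 (limma). Leaving out HFpEF replicate 2 gave 0.75 (unadjusted p = 0.00468, adjusted p = 0.110, limma), and leaving out replicate 3 gave 0.22. Gucy1b1 was one of 3 members with an unadjusted p under 0.05 and a higher level when HFpEF replicate 2 was left out, beside Gucy1a1 and Pde5a, where 10.4% of all tested genes were.

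The ratio of Gucy1a1 to Gucy1b1 was higher in each HFpEF library than in any Chow library. Gucy1a1 was at 0.758, 0.663 and 0.821 times the FPKM of Gucy1b1 in Chow, below 1 in every library. In HFpEF it was at 1.10, 1.98 and 0.852 times, above 1 in replicates 1 and 2 only. The log2 ratio was −0.43 ± 0.16 (SD, n = 3) for Chow mice and 0.30 ± 0.63 (SD, n = 3) in HFpEF, without overlap, and the difference of 0.73 had an exact two-sided permutation p = 0.1, the smallest possible. HFpEF replicate 3 (−0.23) lay close to Chow replicate 3 (−0.28), and leaving out HFpEF replicates 2 and 3 in turn gave differences of 0.38 and 0.99. Summed FPKM of both subunits was 14.0, 12.5 and 15.5 in Chow and 24.3, 22.6 and 29.3 in HFpEF.

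**Figure D2:**
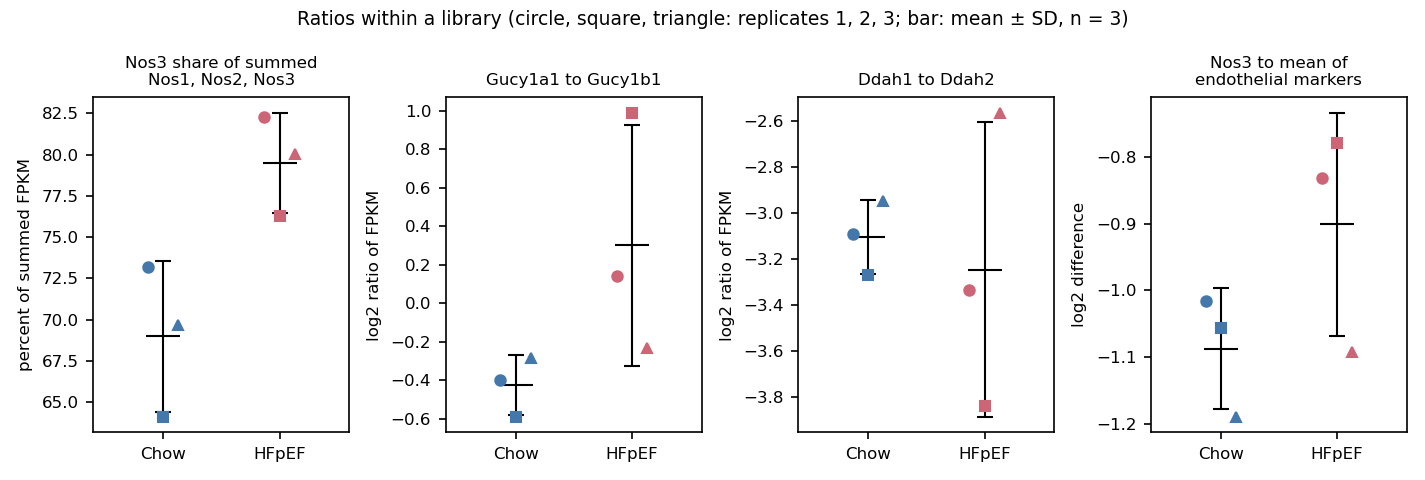
Ratios within each library, with circles, squares and triangles for replicates 1, 2 and 3 and bars for the mean ± SD of 3 mice: the Nos3 share of summed NO synthase FPKM (percent), the log2 ratios of Gucy1a1 to Gucy1b1 and of Ddah1 to Ddah2 FPKM, and Nos3 against the mean of endothelial markers (log2 difference). The groups are separate for the Nos3 share (64.1% to 73.2% against 76.3% to 82.3%) and for Gucy1a1 to Gucy1b1, and overlap in the other panels.

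The subunit genes lie on the same strand of chromosome 3 with 17737 bases between them. Because they are neighbours with unlike values in HFpEF replicate 2, the sequence before each start site is shown, read from a table of RefSeq start sites (GRCm38.p6), in which 7 of the 10 genes were matched. The stretches are chr3:82145790-82145900 for Gucy1a1, limited to the 111 bases outside the GENCODE gene, and chr3:82074712-82074961 for Gucy1b1, 250 bases, both on the minus strand and written 5′ to 3′. Capitals mark the letters GGGCGG and CAGCTG, and CCAAT as read from its other strand (ATTGG), found by a search of both strands.
Gucy1a1: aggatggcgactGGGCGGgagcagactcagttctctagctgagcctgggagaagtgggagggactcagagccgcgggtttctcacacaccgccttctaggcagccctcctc
Gucy1b1: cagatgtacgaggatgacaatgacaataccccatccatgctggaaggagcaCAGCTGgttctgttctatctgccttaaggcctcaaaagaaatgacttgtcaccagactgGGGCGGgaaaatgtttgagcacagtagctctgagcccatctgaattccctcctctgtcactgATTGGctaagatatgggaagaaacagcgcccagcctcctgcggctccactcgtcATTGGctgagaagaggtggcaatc
In the whole 250-base windows, both genes held 1 GGGCGG, at −238 for Gucy1a1 and −140 for Gucy1b1 relative to the start site, and such a match occurs in 32.7% of the 32851 windows of the same length. CAGCTG was found at −10 for Gucy1a1, outside the stretch printed, and at −199 for Gucy1b1, and occurs in 13.0% of all windows. CCAAT was found in the Gucy1b1 window, at −78 and −24, and not in that of Gucy1a1, and occurs in 33.8% of all windows. No match was found in either for TATAAA (in 12.4% of all windows), for TGANTCA (6.75%) or for CACGTG (6.02%). GC content of the whole window was 64.0% for Gucy1a1 and 51.2% for Gucy1b1, compared with a median of 52.4% over all windows. The 2 windows are unlike: 139 bases of that of Gucy1a1 lie inside its GENCODE gene, while that of Gucy1b1 lies wholly outside. Gucy1a1 had 2 RefSeq start sites, of which the nearest to its GENCODE start was used. A match describes letters only.

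Downstream of cGMP, Prkg1, the kinase that carries most of its effect in smooth muscle, was low and overlapped between the groups. Prkg1 (ENSMUSG00000052920, chromosome 19, 30564489 to 31765033) had 0.963, 1.32 and 1.11 FPKM in Chow and 1.62, 1.57 and 1.21 FPKM in HFpEF. HFpEF replicates 1 and 2 were above all Chow libraries and replicate 3 was within their range. Its log2 fold change was 0.34 ± 0.21 (SE), with an adjusted p of 0.342 (limma), and the 95% confidence interval of −0.15 to 0.84 includes no difference.

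The phosphodiesterase genes were even in Chow and uneven in HFpEF, and not in the same mice. Pde5a (ENSMUSG00000053965, chromosome 3, 122728947 to 122859374), which encodes the enzyme inhibited by sildenafil, had 1.11, 1.09 and 1.00 FPKM in Chow and 2.12, 0.853 and 2.49 FPKM in HFpEF. HFpEF replicates 1 and 3 were above all Chow libraries and replicate 2 below them all, a 2.92-fold range. The log2 fold change was 0.59 ± 0.38 (SE), with an adjusted p of 0.374 (limma) in all libraries and 1.04 (unadjusted p = 0.00201, adjusted p = 0.101, limma) without HFpEF replicate 2. It was 0.32 (unadjusted p = 0.421, adjusted p = 0.647, limma) without HFpEF replicate 3. Pde9a (ENSMUSG00000041119, chromosome 17, 31386210 to 31476310), whose enzyme has a high affinity for cGMP, had 1.14, 1.23 and 1.31 FPKM in Chow and 2.98, 1.67 and 0.877 FPKM in HFpEF. Here HFpEF replicate 1 was the highest and replicate 3 the lowest of all 6 libraries, a 3.40-fold range. Its log2 fold change was 0.39 ± 0.40 (SE), with an adjusted p of 0.572 (limma), 0.81 (unadjusted p = 0.0207, adjusted p = 0.122, limma) without HFpEF replicate 3, and −0.02 without HFpEF replicate 1. With HFpEF replicate 3 left out, 2 members (Gucy1a1 and Pde9a) had an unadjusted p under 0.05 and a higher level, with 10.2% of all tested genes. Pde9a was also counted on few reads, 51 to 57 in Chow and 60 to 146 in HFpEF. Its exons share 157 and 138 bases with 2 other annotated genes, whose strand and reads were not determined here.

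**Figure D3:**
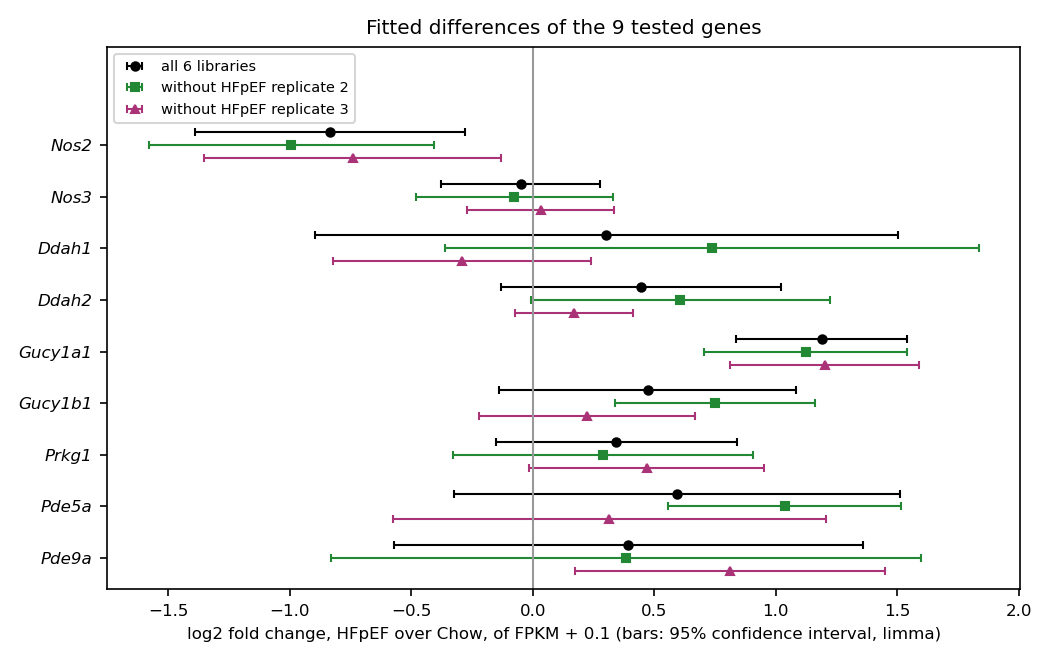
Fitted log2 fold change of FPKM + 0.1, HFpEF over Chow (x axis, with 95% confidence intervals from limma), of the 9 tested genes in all 6 libraries (black circles), without HFpEF replicate 2 (green squares) and without HFpEF replicate 3 (purple triangles). Gucy1a1 stays between 1.12 and 1.20 and Nos2 between −0.99 and −0.74, while Ddah1 lies on both sides of 0 and Pde5a, Pde9a and Gucy1b1 move with the library left out.

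Markers of the other cell types in the tissue differed between the same libraries. Smooth muscle and pericyte markers summed to 376, 386 and 421 FPKM in Chow and 777, 293 and 592 FPKM in HFpEF, so that replicates 1 and 3 were high and replicate 2 was below Chow. Acta2, the smooth muscle actin gene, was at 53.2 to 77.9 FPKM in Chow and at 422, 48.8 and 262 FPKM in HFpEF. Pde5a and Gucy1b1 were high in those same HFpEF replicates, 1 and 3, and at or below Chow levels in replicate 2. Gucy1a1 was not, being highest in replicate 2 (15.0 FPKM). Nor was Prkg1, at 1.62, 1.57 and 1.21 FPKM in HFpEF, with replicate 3 within the Chow range. Other markers of this list went differently, with Rgs5, a pericyte gene, at 143 to 165 FPKM in Chow and 118, 109 and 147 FPKM in HFpEF, and 2 of the 10 tested markers, Kcnj8 and Abcc9, lower without overlap, a share close to the 19.7% of all tested genes.

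Fibroblast markers summed to 220 to 259 FPKM in Chow and to 425, 494 and 5522 FPKM in HFpEF, with Col1a1 at 2252 FPKM in replicate 3 alone against 24.9 to 87.2 FPKM elsewhere. Some markers of the list were closer among the HFpEF libraries, with Pdgfra at 11.3, 11.6 and 13.0 FPKM and Dcn at 177, 168 and 196 FPKM. Ddah1 and Ddah2 were highest in that replicate. Among the 3 HFpEF libraries, replicate 3 had the highest value for 38.5% of all tested genes and the lowest for 43.9%. Atrial cardiomyocyte markers were high in HFpEF replicates 1 and 2 (2305 and 3834 summed FPKM) and low in replicate 3. Pde9a and Prkg1 were also above all Chow libraries in replicates 1 and 2, with Pde9a at 2.98 and 1.67 FPKM. In Chow replicate 3 the atrial markers summed to 538 FPKM, with Pde9a at 1.31 and Prkg1 at 1.11 FPKM. Chow replicates 1 and 2 had 13.3 and 16.2 summed FPKM, Pde9a at 1.14 and 1.23 and Prkg1 at 0.963 and 1.32 FPKM. All 9 ventricular cardiomyocyte markers were lower without overlap, beside 19.7% of all tested genes, at 17066 to 18685 summed FPKM in Chow and 12286, 13088 and 8319 FPKM in HFpEF. Adipocyte markers were at 0 to 0.0481 summed FPKM in Chow and 88.9, 87.2 and 36.2 FPKM in HFpEF. Schwann cell and neuron markers were at 7.43 to 10.5 and 11.1 to 17.0 summed FPKM. Red blood cell markers (278 to 1576 against 474 to 1798) and neutrophil markers (0.674 to 3.35 against 0.746 to 1.63, with Ly6g at 0 in every library) overlapped. The part of these cell types in the results was not tested.

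**Figure D4:**
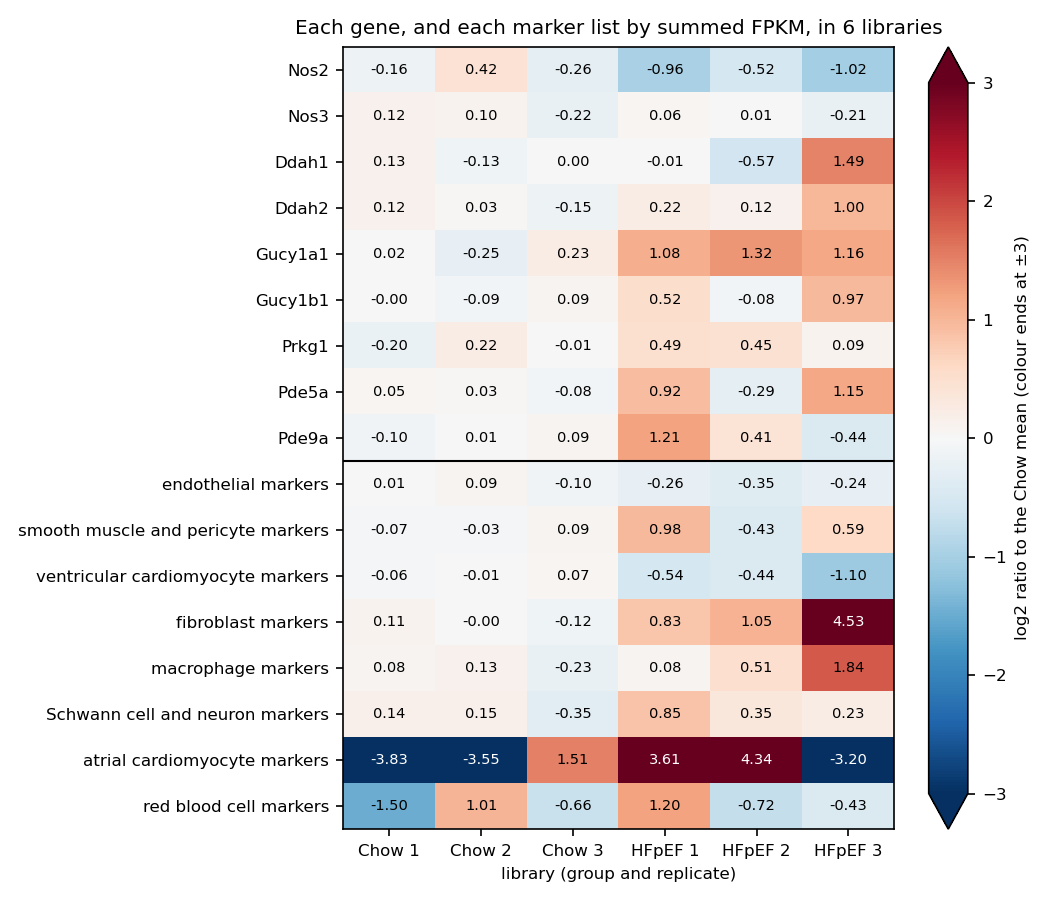
Log2 ratio to the Chow mean (colour and printed number, colour ending at ±3) of each tested gene by FPKM, above the line, and of marker lists by summed FPKM, below it, in the 6 libraries. Gucy1a1 is above 1 in all 3 HFpEF libraries, Pde5a and the smooth muscle and pericyte markers are above 0 in HFpEF replicates 1 and 3 and below 0 in replicate 2, and fibroblast markers reach 4.53 in HFpEF replicate 3.

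Around these genes, 58 further genes of the pathway were read from the same fit, of which 47 were tested. None reached the adjusted threshold (0 of 47). By unadjusted p, 8 were under 0.05 and higher and 7 under 0.05 and lower, beside 10.2% and 13.1% of all tested genes. In 8 every HFpEF value exceeded Chow and in 12 every value was below, beside 15.6% and 19.7% of all tested genes, and the median of their log2 fold changes was −0.02. The count of higher genes was 5 with Chow replicate 1 left out and 4 with Chow replicate 2 left out. The count of lower genes was 4 without Chow replicate 2 and 11 when either HFpEF replicate 2 or replicate 3 was left out. The share of all tested genes with the same call was not computed for these fits, so these counts have no background beside them. In the fit lacking HFpEF replicate 3, 8 of the 47 passed an adjusted p under 0.05, beside 8.36% of all tested genes: Pde3b, Ass1, Npr1 and Mrvi1 were higher and Mb, Pln, Cav3 and Spr lower.

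Of 4 tested genes of arginine supply and use, 2 were higher and 1 lower at an unadjusted p under 0.05 (10.2% and 13.1% of all tested genes). Ass1, which encodes argininosuccinate synthase, a step in remaking arginine from citrulline, had 0.669, 0.635 and 0.582 FPKM in Chow and 1.91, 1.54 and 1.37 FPKM in HFpEF. Its groups did not overlap, and its log2 fold change was 1.22 ± 0.21 (SE), with an adjusted p of 0.0889 (limma). The arginine transporter gene Slc7a2 had 0.800, 0.457 and 0.652 FPKM in Chow and 2.43, 1.09 and 3.80 FPKM in HFpEF, a log2 fold change of 1.65 (standard error 0.45, adjusted p = 0.125, limma). Slc7a1, the more abundant arginine transporter, was lower at an unadjusted p under 0.05, with 5.94 to 6.89 FPKM in Chow and 4.77 to 5.55 FPKM in HFpEF (log2 fold change −0.36, adjusted p = 0.155, limma). Arg1, an arginase that competes for arginine, was not tested and had 252 reads in HFpEF replicate 3 and at most 3 in any other library.

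Tetrahydrobiopterin, the cofactor that NO synthase needs, is made and recycled by 6 of the listed genes, all tested, of which 2 were lower at an unadjusted p under 0.05 (13.1% of all tested genes). They were Spr, sepiapterin reductase (22.3 to 23.9 FPKM in Chow, 16.6 to 18.9 FPKM in HFpEF, log2 fold change −0.37), and Qdpr, which regenerates the cofactor (25.1 to 26.5 FPKM against 19.6 to 22.7 FPKM, −0.32). Their adjusted p was 0.123 and 0.148 (limma), respectively. Gch1, the first enzyme of the synthesis, was at −0.30 in log2 fold change (adjusted p = 0.384, limma).

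Of the 12 genes that bind or control NO synthase, 1 was lower and 1 higher at an unadjusted p under 0.05, no more than the 13.1% and 10.2% of all tested genes. Cav3, the muscle caveolin, had 46.2, 44.2 and 45.5 FPKM in Chow and 35.7, 31.9 and 24.1 FPKM in HFpEF (log2 fold change −0.59, adjusted p = 0.124, limma). Dynll1, a dynein light chain that binds neuronal NO synthase, was higher (0.61, adjusted p = 0.173, limma). Cav1, the caveolin of endothelial cells, was at 92.5 to 99.6 FPKM in Chow and 92.7 to 104 FPKM in HFpEF. Of 3 tested genes that form or otherwise break down methylarginines, 0 had an unadjusted p under 0.05.

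Among 5 genes of NO scavenging and denitrosylation, 2 were lower at an unadjusted p under 0.05 (13.1% of all tested genes). Mb, myoglobin, which binds and oxidizes NO in muscle, had 4260, 4246 and 4120 FPKM in Chow and 2799, 2719 and 1814 FPKM in HFpEF (log2 fold change −0.81, adjusted p = 0.142, limma), and after quantile normalization its log2 fold change turned to 0.14. Adh5, which encodes the S-nitrosoglutathione reductase, was at −0.46 in log2 fold change (adjusted p = 0.124, limma). Mb and Cav3 are made by cardiomyocytes, whose markers were lower in the same libraries, as given above. The part of these cells in the Mb and Cav3 results was not tested.

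Npr1, the membrane guanylyl cyclase that answers to natriuretic peptides rather than NO, had 8.79, 8.46 and 8.64 FPKM in Chow and 11.6, 11.7 and 10.2 FPKM in HFpEF (log2 fold change 0.36, standard error 0.10, adjusted p = 0.124, limma). Its groups did not overlap. Npr2, the other membrane cyclase tested, overlapped, at 15.7 to 16.9 FPKM in Chow and 14.7 to 17.1 FPKM in HFpEF. Gucy1a2, the alternative alpha subunit of soluble guanylyl cyclase, was below the level tested and overlapped between the groups, at 0.205 to 0.286 FPKM in Chow and 0.265 to 0.391 FPKM in HFpEF.

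Pde3b, a phosphodiesterase that cGMP inhibits and that is known from fat and liver, had the largest log2 fold change of the 47 genes. Its FPKM was 0.532, 0.514 and 0.871 in Chow and 1.94, 2.82 and 2.37 in HFpEF, without overlap, and the log2 fold change was 1.76 ± 0.26 (SE), with an adjusted p of 0.0757 (limma). Adipocyte markers, as given above, were higher in the same 3 libraries, and their part in this result was not tested. Pde1a, a calcium-activated phosphodiesterase, was at 1.25 to 1.65 FPKM in Chow and 1.89 to 3.32 FPKM in HFpEF (0.73, adjusted p = 0.167, limma). Pde3a, the form abundant in heart, was at 11.0 to 12.9 FPKM in Chow and 9.98 to 13.1 FPKM in HFpEF.

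Of the kinase substrates, Mrvi1, which is phosphorylated by the Prkg1 kinase at calcium stores, was at 3.11 to 3.89 FPKM in Chow and 9.21, 5.97 and 3.88 FPKM in HFpEF. HFpEF replicate 3 was within the Chow range (log2 fold change 0.81, adjusted p = 0.187, limma). Ppp1r12a, the targeting subunit of myosin phosphatase, was at 8.14 to 9.30 FPKM in Chow and 9.39 to 13.8 FPKM in HFpEF (0.47, adjusted p = 0.171, limma). Pln, phospholamban, was lower in every HFpEF library, at 561 to 612 FPKM in Chow and 476, 435 and 222 FPKM in HFpEF. Its adjusted p was 0.220 (limma) in all libraries. Without HFpEF replicate 3 it was 0.0350 (limma), and 8.36% of all tested genes then had an adjusted p under 0.05. Ventricular cardiomyocyte markers were lower in the same libraries, as given above, and their part in the Pln result was not tested.

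**Figure D5:**
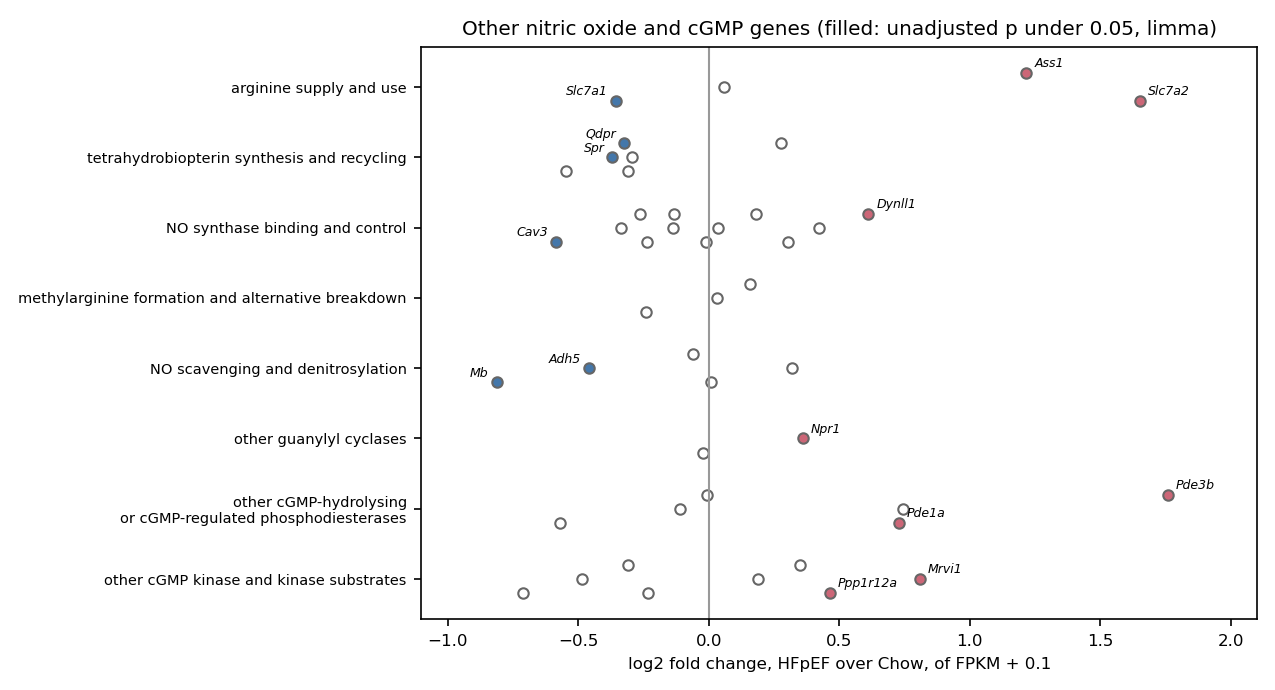
Log2 fold change of FPKM + 0.1, HFpEF over Chow (x axis), of the tested pathway genes beside the 10 described first, 1 of them not shown, in rows by role, with each point a gene and filled points for an unadjusted p under 0.05 (red higher, blue lower). Pde3b (1.76), Slc7a2 (1.65) and Ass1 (1.22) lie farthest to the right and Mb (−0.81) farthest to the left.

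The 5 tested genes whose log2(FPKM + 0.1) over the 6 libraries was most like that of Nos3 were Gm23543, Rab4a, Gm24430, Naa40 and Rims4, with Pearson's r of 0.992, 0.989, 0.988, 0.986 and 0.985. These values describe 6 libraries that share their depth and make-up, chosen among 14225 genes. Each of the 5, like Nos3, was lowest in replicate 3 of both groups. Rab4a, for example, was at 6.67, 5.67 and 2.92 FPKM in Chow and 5.59, 4.50 and 2.83 FPKM in HFpEF, and Naa40 at 10.9, 10.04 and 7.50 FPKM and 9.66, 9.25 and 7.14 FPKM. Gm23543 and Gm24430 are small nuclear RNA genes at 0 FPKM in replicate 3 of both groups.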

How the data were processed

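RNA from the hearts of 3 Chow and 3 HFpEF mice (tissue: heart per the labels, left ventricular myocardium per the study's methods) was sequenced, 1 library per mouse. Per the paper's methods, the authors aligned clean reads with HISAT2 and counted them with featureCounts, and they deposited FPKM per gene. Builds named in the submitters' processing notes are GRCm38 and mm10. The annotation, FPKM formula and counting strand are not given in the sources used here. FPKM multiplied by the GENCODE M21 exon length gave whole reads, at a relative tolerance of 1e-06, for 96.1% to 96.2% of values above 0. The steps imply a scaling between libraries beyond the read totals, and factors computed here by the median of ratios were then close to 1. The number of per-sample columns not used was 0.

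FPKM was divided by these factors, and log2(FPKM + 0.1) of genes reaching 0.5 FPKM in 3 or more libraries was fitted with limma 3.58.1 (lmFit, eBayes with trend and robust options) in R 4.3.3. This replaces the count test of the study's methods, since FPKM are not counts. The DEG thresholds were those of the study's methods, an adjusted p of 0.05 and a log2 fold change of 2 in either direction. Ratios within libraries were tested by exact permutation of the mice, two-sided. Shallower genes have wider error, since 1 read is a larger part of their value. Tables were made in Python 3.11.15 (scipy 1.17.1, pandas 2.3.3, numpy 2.4.6) and figures with matplotlib 3.10.9. The fit was tested on simulated data.

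All 10 members were named, with up to 6 higher and 6 lower pathway genes of smallest p (unadjusted p under 0.05), the 5 genes most like Nos3 and up to 3 abundant genes per marker list. Arg1, Gch1, Cav1, Gucy1a2, Npr2, Pde3a, Slc7a1, Dynll1, Mrvi1, Pln, Pdgfra and some other markers fall outside this rule and were chosen after their values were seen. Members and lists were chosen with earlier results of these data known. Alternatives were a pseudocount of 0.01 or 1, quantile normalization, the FPKM without rescaling, a minimum FPKM of 1 or none, eBayes without trend or robust options, voom on recovered reads, the replicate number as a block, each library left out and, for ratios, the median over mice, the median of markers and a pseudocount of 1. Values of 1 pathway gene covered by this rule are not reported here. The study's proteomics and other assays were not analysed here.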

Additional observations from a re-analysis of the deposited data

How the results depend on the processing

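Each library rests on 1 mouse and each group on 3, so differences were judged against the spread between these mice. In limma the estimate of that spread also draws on all genes tested. The exact permutation test cannot fall below 0.1 for 3 mice against 3, or below 0.2 with 1 mouse left out. Over all genes, 8 DEGs were higher and 0 lower, with 1452 higher and 1868 lower at an unadjusted p under 0.05 (limma). The 8 became 2 with a pseudocount of 1, 3 with a pseudocount of 0.01, 5 with an FPKM minimum of 1, 15 with eBayes without trend or robust options, 0 with voom on recovered reads, and 2 to 47 with a library left out (47 without HFpEF replicate 3). The 0 became 1 with quantile normalization, 1 with no filter, 4 with eBayes without trend or robust options, and 0 to 12 with a library left out. The cause was not tested.

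Of the members, 0 had an adjusted p under 0.05 in every alternative except without HFpEF replicate 3, where Gucy1a1 made it 1, so the range with a library left out was 0 to 1. Members higher at an unadjusted p under 0.05 numbered 1 to 3 with a library left out, and members lower 1 in every alternative. For the other pathway genes both counts ran from 4 to 11, and the matching share of all tested genes was not computed for most of these fits. Gucy1a1 stayed above 0 and Nos2 below 0, both at an unadjusted p under 0.05, in all 15 alternatives. With a library left out, the log2 fold change ran from −0.16 to 0.034 for Nos3, from −0.015 to 0.81 for Pde9a and from −0.29 to 0.74 for Ddah1, changing sign in each, and the Ddah1 to Ddah2 difference ran from −0.48 to 0.15. Nos3 turned to 0.011 without Chow replicate 1, 0.0032 without Chow replicate 2 and 0.034 without HFpEF replicate 3. Mb turned to 0.14 with quantile normalization, and the cause was not tested.

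Replicate numbers do not pair the samples: deviations of same-numbered libraries from their group means had correlations of −0.041, −0.073 and −0.057. With the replicate block, DEGs higher fell from 8 to 2 and the counts of members did not move, with an adjusted p of 0.193 for both Gucy1a1 and Nos2 (limma).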
